A study of Mus musculus with 4 samples.

Results

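The data compared here are pSTAT3-Y705 peaks of untreated leukemic (CML) and untreated normal (WT) bone marrow LSK cells. They were every deposited peak of these 2 libraries outside chromosome Y, each counted once per library. That gave 1215 peaks, 637 in CML and 578 in WT, of 3218 distinct peaks in the whole series, chromosome Y included. The deposited table is far shorter than the site lists that the study describes, so a site or gene missing from a library here was missing from this table and not necessarily from that library's full peak list. LSK cells are lineage-negative, Sca1-positive and cKit-positive cells, the marrow fraction that contains hematopoietic stem cells and early progenitors. WT cells came from wild-type C57BL/6 mice that received no drug. CML cells came from C57BL/6 mice with the chronic myeloid leukemia genotype, also without drug. In this model the BCR-ABL oncogene is switched on by a tetracycline-controlled activator that the SCL (Tal1) stem cell enhancer drives once tetracycline is withdrawn. The methods describe CML mice as double transgenic for BCR-ABL and SCL-tTA. Another library, CML-TKI, came from leukemic mice given imatinib and is used here only to look up sites. An IgG sample served as input and was not analysed here. Age, the number of mice and whether marrow was pooled are not given in the sources used here. Peaks do not measure expression, so the LSK gate could not be checked against its markers. Each group was 1 library, so the differences described below have no replicate check and no test was made.

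STAT3 is a transcription factor that cytokine receptors activate through JAK kinases. Phosphorylation at Y705 lets STAT3 proteins pair, enter the nucleus and bind DNA, often at the palindrome TTCNNNGAA, where N is any base. BCR-ABL is a constitutively active tyrosine kinase that drives chronic myeloid leukemia and signals through STAT, RAS and PI3K pathways. In blood stem cells, STAT3 target genes include regulators of growth, survival and cytokine feedback.

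The promoters below are shown because pSTAT3 peaks met them in both libraries (Bcl6, Plk1), in CML alone (Ap4e1, Stat3, Rbm39) or in WT alone (Klf2). Bcl6 encodes a transcriptional repressor of blood cells, Plk1 a mitotic kinase, Ap4e1 a subunit of a vesicle adaptor complex, Rbm39 a splicing factor and Klf2 a transcription factor of quiescent lymphocytes and endothelium. Each window runs from 250 bases before to 50 bases after the transcription start site (TSS) and comes from RefSeq on GRCm38. Capitals mark matches to TTCNNNGAA, which reads the same on both strands. The windows lie at chr16:23988803-23989102 (Bcl6, minus strand), chr7:122159185-122159484 (Plk1, plus), chr2:127008461-127008760 (Ap4e1, plus), chr11:100939491-100939790 (Stat3, minus), chr2:156180189-156180488 (Rbm39, minus) and chr8:72318812-72319111 (Klf2, plus). Peak positions elsewhere in the text are in mm9, the build of the peak table. Peak ends given from the TSS come from that table and were laid on the GRCm38 windows by RefSeq accession. Whether each TSS is the same in the 2 builds was not checked.
Bcl6: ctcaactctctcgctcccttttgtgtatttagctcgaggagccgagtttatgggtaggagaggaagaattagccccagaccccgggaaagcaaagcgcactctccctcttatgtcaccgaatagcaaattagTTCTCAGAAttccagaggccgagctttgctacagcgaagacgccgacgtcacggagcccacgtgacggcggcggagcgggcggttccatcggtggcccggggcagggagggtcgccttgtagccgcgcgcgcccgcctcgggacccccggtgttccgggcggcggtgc
Plk1: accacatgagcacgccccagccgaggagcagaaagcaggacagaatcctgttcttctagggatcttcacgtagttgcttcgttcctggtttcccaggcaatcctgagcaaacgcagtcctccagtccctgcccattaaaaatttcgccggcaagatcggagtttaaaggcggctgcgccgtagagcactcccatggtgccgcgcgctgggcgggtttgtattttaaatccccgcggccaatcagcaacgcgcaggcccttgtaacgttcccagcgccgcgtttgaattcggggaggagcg
Ap4e1: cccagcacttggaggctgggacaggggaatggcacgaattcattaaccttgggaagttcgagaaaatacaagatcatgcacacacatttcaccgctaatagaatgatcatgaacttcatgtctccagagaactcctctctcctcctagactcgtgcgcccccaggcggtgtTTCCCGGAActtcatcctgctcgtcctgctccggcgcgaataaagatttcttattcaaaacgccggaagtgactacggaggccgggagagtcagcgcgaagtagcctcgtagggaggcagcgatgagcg
Stat3: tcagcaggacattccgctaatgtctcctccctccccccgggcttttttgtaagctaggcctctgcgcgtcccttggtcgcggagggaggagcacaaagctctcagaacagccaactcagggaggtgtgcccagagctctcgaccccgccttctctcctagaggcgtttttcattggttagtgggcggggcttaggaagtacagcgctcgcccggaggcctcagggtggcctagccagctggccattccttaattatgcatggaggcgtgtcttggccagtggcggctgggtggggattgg
Rbm39: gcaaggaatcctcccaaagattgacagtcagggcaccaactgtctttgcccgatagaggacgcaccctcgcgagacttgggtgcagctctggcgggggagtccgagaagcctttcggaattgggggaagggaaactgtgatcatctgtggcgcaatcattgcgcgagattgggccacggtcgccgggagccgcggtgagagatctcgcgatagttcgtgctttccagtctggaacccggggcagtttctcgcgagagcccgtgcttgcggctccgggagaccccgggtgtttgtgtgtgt
Klf2: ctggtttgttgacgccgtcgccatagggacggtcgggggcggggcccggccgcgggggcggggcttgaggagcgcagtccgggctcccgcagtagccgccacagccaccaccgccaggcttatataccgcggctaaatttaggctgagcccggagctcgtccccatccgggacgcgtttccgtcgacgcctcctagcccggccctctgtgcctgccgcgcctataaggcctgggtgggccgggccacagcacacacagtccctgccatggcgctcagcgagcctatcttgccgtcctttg

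The motif stood in few of these windows. The Bcl6 promoter held TTCTCAGAA from -118 bp, inside the peak, which spanned -286 to -46 bp from the TSS with the same ends in WT and CML. The Ap4e1 promoter held TTCCCGGAA from -79 bp, also inside its CML peak (-128 to 62 bp). The other 4 windows shown held no match, which says only that these letters are not in those windows. Some genes had a nearest peak that met such a window. Of these, 41 of 54 CML-only, 23 of 31 WT-only and 8 of 12 shared genes matched a RefSeq promoter at or within a few bases of the same start. Genes of both libraries were placed by their CML peak, and at Vmn2r89, among the 8, the WT peak lay far from the promoter. The motif stood in 3 of the 41 CML-only promoters (7.32%, exact 95% interval 1.54 to 19.9), in 0 of the 23 WT-only promoters (upper bound 14.8%) and in 1 of the 8 shared ones. Among all 32412 RefSeq promoter windows it stood in 2704, or 8.34%. That share lay within the interval of the CML-only promoters, which is too wide to show or exclude a difference. The median GC content was 60.7% in CML-only, 62.0% in WT-only and 56.2% in shared promoters, beside 53.0% in all, and its part in these shares was not tested. Agk, which encodes a mitochondrial lipid kinase, and Zfp54, a zinc finger gene, were the other CML-only promoters with a match, and in both it lay outside the peak. Exact intervals here and below are Clopper-Pearson intervals that cover counting error over peaks, sites or genes only.

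In the deposited table, more sites were found in CML alone than in WT alone or in both libraries. Peaks of either library that overlapped by at least 1 bp were joined into a site, which gave 810 sites. Of these, 424 (52.3%) had peaks in CML only, 195 (24.1%) in WT only and 191 (23.6%) in both. The shared sites took in 351 of the 578 WT peaks (60.7%, 56.6 to 64.7) and 202 of the 637 CML peaks (31.7%, 28.1 to 35.5). WT peaks were often stacked: 91 of the 191 shared sites had 2 or more WT peaks and 10 had 2 or more CML peaks. When overlapping peaks within a library were merged, WT went from 578 peaks to 386 regions, a drop of 33.2%, and CML from 637 to 625, a drop of 1.88%. The order held without the 10 genes with the most table entries, with 410 CML-only, 163 WT-only and 106 shared sites. It was turned around among peaks at least 500 bp wide, with 4 CML-only, 53 WT-only and 24 shared sites. The table lists no read counts, scores or enrichment, so depth is unknown. A peak missing from a library may have fallen under that library's threshold or outside the part of its list held here, and these were not told apart.

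The CML-only sites also stood apart in the treated leukemic library. Of the 195 WT-only sites, 186 (95.4%, 91.4 to 97.9) overlapped a peak in CML-TKI, and so did 190 of the 191 shared sites (99.5%, 97.1 to 100). Of the 424 CML-only sites 127 did (30.0%, 25.6 to 34.6), which left 297 sites seen in untreated leukemic cells alone. The 9 WT-only sites missing from CML-TKI included 1 near Arid1a (chr4:133369796-133370065), which encodes a DNA-binding subunit of the SWI/SNF remodeler, and 5 on chromosome X. CML-TKI had 1510 peaks off chromosome Y, more than either other library, and the part of list length in these shares was not tested. In the deposited table, 9 WT-only sites against 297 CML-only sites were thus absent from both other libraries. The study describes nearly as many unique sites in control mice as in leukemic mice. Whether the deposited WT list leaves out many sites of its own was not tested. That limit bears on every count of CML-only and WT-only sites and genes here.

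**Figure D1:**
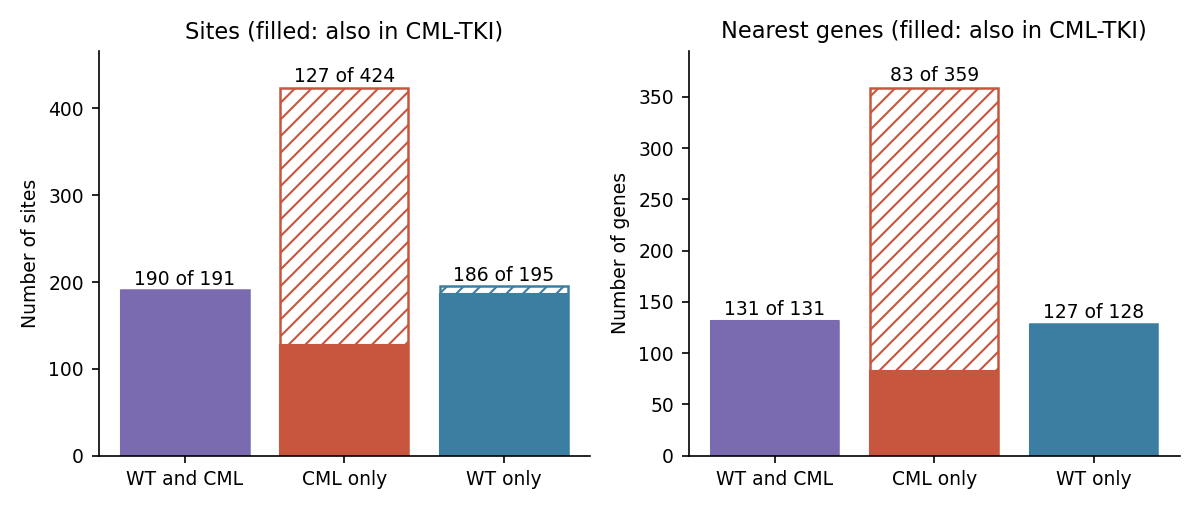
Number of sites (left) and of nearest genes (right) with peaks in WT and CML, in CML only or in WT only. The filled part of each bar is the number also found in CML-TKI, printed above the bar as a count of the whole class: 127 of 424 CML-only sites against 186 of 195 WT-only sites.

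By nearest gene, CML-only members were again the most numerous. WT and CML peaks named 618 genes, of which 359 were named in CML only, 131 in both libraries and 128 in WT only. CML named 490 genes and WT 259. Among 21631 protein-coding genes, 1.94% were named by a CML peak and 1.03% by a WT peak. In CML and not WT 1.43% were named, in WT and not CML 0.522% and in both 0.509%. These 5 shares are the background for the lists of genes below. Of the 359 CML-only genes, 83 (23.1%, 18.9 to 27.8) were also named in CML-TKI. Of the 128 WT-only genes all but Arid1a were. Peaks at least 500 bp wide named 4 CML-only and 17 WT-only genes. The genes of both libraries were mostly named by the same sites, since 111 of 131 shared a site and 20 were named by separate sites.

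Where a site was present in both libraries, the WT peaks together spanned at least as much sequence as the CML peaks. At all 191 shared sites the stretch covered by CML peaks lay inside the stretch covered by WT peaks or was equal to it. The WT span was wider at 146 sites, equal at 45 and narrower at 0. The median span was 362 bp in WT and 252 bp in CML, the median ratio was 1.1 (quartiles 1.0 and 1.61), and the centres lay a median of 11 bp apart. With sites limited to those whose ends were listed in full in both libraries, WT was wider at 134 of 173, equal at 39 and narrower at 0. At the 97 sites with 1 peak in each library the median ratio was 1.02, and the part of stacked WT peaks in the added span was not tested. At Pcmtd1, with 1 peak in each library, the WT peak was 581 bp and the CML peak 145 bp. Of the 16 shared sites within 1 kb of a TSS, 9 had equal spans and WT was wider at 7, by up to 3.91 times. Farther away 36 of 175 had equal spans. Among the promoter sites Malat1 (chr19:5802499-5802855), Plk1 (chr7:129302856-129303108), Jak3 (chr8:74200350-74200496) and Prkag1 (chr15:98661938-98662121) had the same ends in both. The study's methods describe a HOMER step that compared peaks across the libraries, but whether it set the ends listed here is not given in the sources used here.

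**Figure D2:**
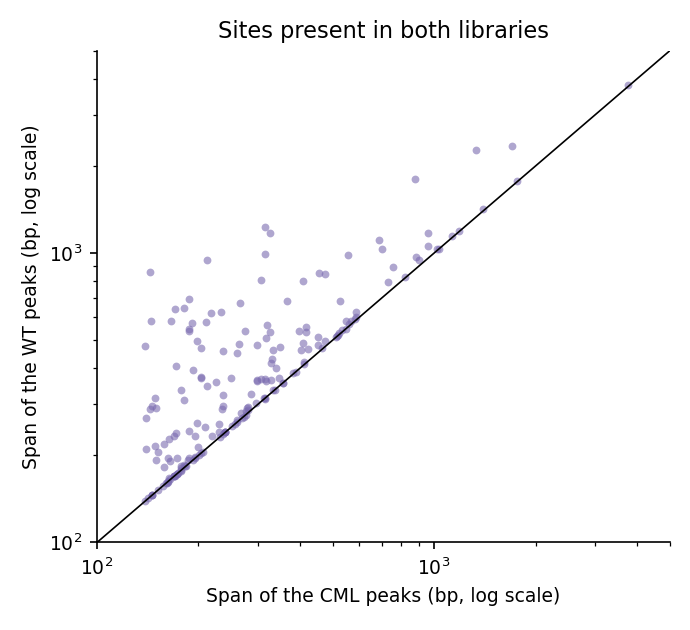
Span covered by WT peaks (y axis, bp, log scale) against the span covered by CML peaks (x axis, bp, log scale) at the 191 sites with peaks in both libraries. Each point is 1 site and the line marks equal spans; the points lie on the line (45 sites) or above it (146 sites).

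Over all peaks, WT had a median width of 316 bp (quartiles 197 and 509.5, 531 peaks with known ends) and CML of 184 bp (152 and 243, 633 peaks). CML-only peaks were the narrowest, with a median of 170 bp, against 219.5 bp for WT-only peaks. In shared sites the median was 390 bp for WT peaks and 240 bp for CML peaks. The total covered was alike, 138 kb in WT and 145 kb in CML. Of peaks at least 500 bp wide, WT had 135 and CML 29, so the longer CML list came from narrow peaks. The widest CML-only sites lay in the first intron of H3f3b, a histone H3.3 gene (chr11:115885088-115885756, 668 bp), in the first intron of Dtwd2, a tRNA-modifying enzyme gene (chr18:49914665-49915275, 610 bp), and in a B2 SINE element 13150 bp upstream of Parp16 (chr9:65049050-65049645, 595 bp). Next came the promoter of Hist1h2ac, a histone H2A gene (chr13:23774971-23775487, 516 bp), and LTR elements near Maml2, a Notch coactivator gene (424 bp), and Drosha, the microRNA-processing nuclease gene (406 bp). The widest WT-only sites lay at Sfi1 (1023 bp), Zfp930 (959 bp), Slc7a15 (944 bp and 887 bp), Pisd-ps3 (861 bp) and Riok2 (723 bp). The widest shared site was in Rn45s, the ribosomal RNA precursor unit (chr17:39979976-39983780, 3804 bp).

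A few loci held many WT peaks. Sfi1, a centrosomal protein gene near the start of chromosome 11, was nearest to 67 WT and 27 CML peaks. Vmn2r121, a vomeronasal receptor gene on X, was nearest to 59 and 30, Mir101c on chromosome 9 to 53 and 27, Pisd-ps3 to 19 and 4, and Lrrc4c on chromosome 2 to 17 and 5. The 10 genes with the most peaks held 254 WT peaks (43.9%) and 111 CML peaks (17.4%). Gm15319, Slc7a15, Vmn1r238, Pisd-ps1 and Ly6c2 were also among the 10 of WT, and Gm13152, Pcmtd1 and Tmem132b among those of CML. Satellite and ribosomal RNA repeats have near-identical copies whose reads cannot be placed with certainty, and whether reads with several placements were kept for peak calling is not given in the sources used here.

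Peaks at transcription start sites made up a larger share of the CML list. A TSS lay at most 1 kb from 122 of 637 CML peaks (19.2%, 16.2 to 22.4) and from 69 of 578 WT peaks (11.9%, 9.41 to 14.9). Without the 10 genes with the most table entries, the shares were 22.9% and 19.9%, so the gap was smaller outside those loci. By site the 2 libraries were alike. Of CML-only sites 105 of 424 (24.8%, 20.7 to 29.2) and of WT-only sites 49 of 195 (25.1%, 19.2 to 31.8) lay within 1 kb, against 16 of 191 shared sites (8.38%, 4.86 to 13.2). CML-only promoter sites fell about evenly on the 2 sides of the TSS, with 54 centred upstream and 51 at or downstream of it. WT-only promoter sites lay more often upstream, 34 against 15.

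By region class, intergenic sequence held 58.0% of WT peaks (53.8 to 62.0) and 53.2% of CML peaks (49.3 to 57.1), and introns 150 of 578 and 158 of 637. The class promoter-TSS of the table held 9.69% and 13.5%. By site, intergenic sequence held 63.4% of the shared, 48.6% of the CML-only and 49.2% of the WT-only sites, and introns 23.6%, 24.8% and 23.6%. Shared sites thus had a larger intergenic share than the sites of either library alone. CML-only and WT-only sites had overlapping intervals in each of these classes. Over 100 kb from a TSS the shares were alike, at 17.8% of shared, 18.4% of CML-only and 19.0% of WT-only sites. Without the 10 genes with the most table entries 106 shared, 410 CML-only and 163 WT-only sites were left. Shares by site, here and for repeats below, were not recomputed without those genes. Exons held 3.46% of WT and 3.92% of CML peaks and 5' UTRs 1.04% and 1.73%, with intervals that overlapped.

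Repeat classes separated shared sites from the rest. Satellite repeats held 39 of 191 shared sites (20.4%, 14.9 to 26.8), 12 of 195 WT-only sites (6.15%, 3.22 to 10.5) and 5 of 424 CML-only sites (1.18%, 0.384 to 2.73). Most of these were the major satellite of mouse centromeres, GSAT_MM, with 34 shared, 8 WT-only and 4 CML-only sites. By peak, satellites held 15.7% of WT (12.9 to 19.0) and 7.22% of CML peaks (5.34 to 9.52), and 7.03% and 3.03% without the 10 genes with the most table entries. LSU-rRNA_Hsa, a ribosomal RNA repeat, held 10 shared, 4 CML-only and 1 WT-only sites. LTR retrotransposons held 21 of 191 shared, 61 of 424 CML-only and 28 of 195 WT-only sites, and LINE elements 4.19%, 8.25% and 7.18%. Among single repeats, IAPEy-int, an endogenous retrovirus, held 8 CML-only, 2 WT-only and 2 shared sites, and the LINE repeats L1_Mus2 and Lx7 held 5 CML-only sites each and none of the other classes. RMER16-int, another LTR repeat, held 9 WT-only, 7 CML-only and 5 shared sites, and MMSAT4, a satellite, 3 WT-only sites and none of the other classes. These repeats were chosen after their counts were seen. No repeat was annotated at 66.3% of CML-only, 62.1% of WT-only and 43.5% of shared sites.

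**Figure D3:**
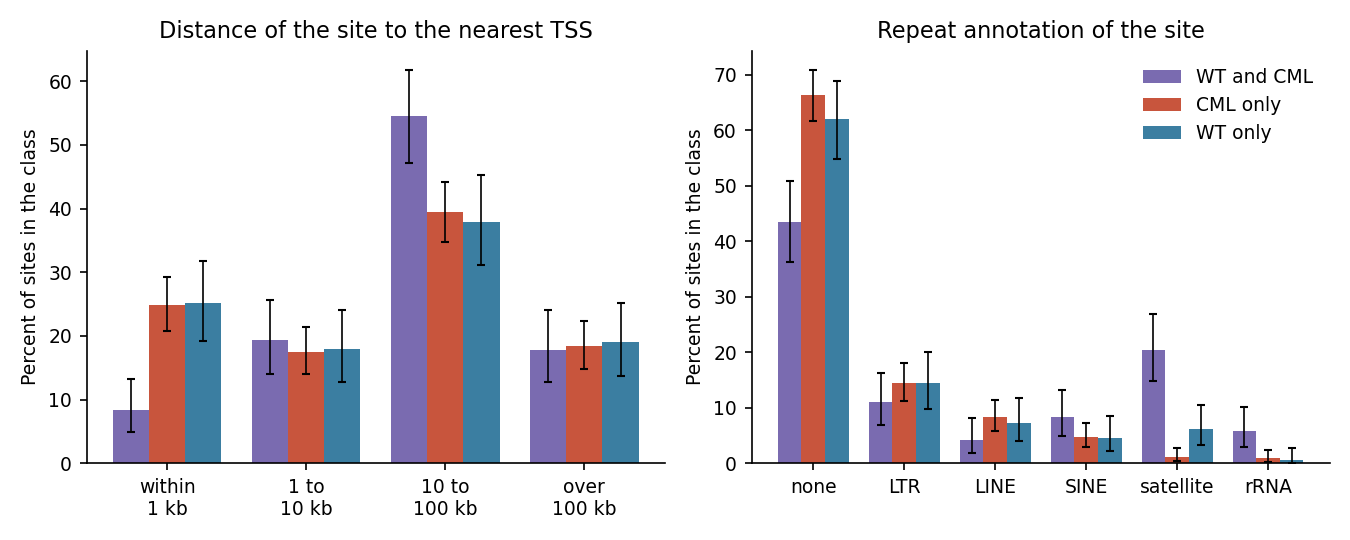
Percent of sites in each class of distance to the nearest TSS (left) and of repeat annotation (right), for sites in both libraries (191), CML only (424) and WT only (195). Bars start at 0 and lines are exact 95% intervals; 24.8% of CML-only, 25.1% of WT-only and 8.38% of shared sites lay within 1 kb of a TSS, and satellites held 20.4% of shared and 1.18% of CML-only sites.

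The balance of classes differed between chromosomes. CML-only sites made up 25 of 31 sites (80.6%) on chromosome 6, 31 of 41 (75.6%) on chromosome 13 and 19 of 26 (73.1%) on chromosome 15, where a single site was WT only. They made up 29 of 85 (34.1%) on chromosome 11, 22 of 66 (33.3%) on chromosome 9 and 28 of 71 (39.4%) on X. Chromosomes 11, 9 and X are those of Sfi1, Mir101c and Vmn2r121.

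Genes named in CML alone had promoter peaks in a smaller share than genes named in WT alone (28.7% against 36.7%). Of 359 CML-only genes 103 (28.7%) were named by a peak at most 1 kb from the TSS, 95 of them protein-coding, and 32 had one centred within 100 bp. These promoter peaks had a median width of 180 bp, and 102 of 103 lay outside annotated repeats. At WT-only promoter genes the median was 162.5 bp, and 47 of 47 lay outside repeats. Only 18 of the 103 genes (17.5%, 10.7 to 26.2) were named in CML-TKI, against 47 of 47 WT-only promoter genes and 20 of 20 genes named in both libraries. Genes named in both were counted by a promoter peak in either library, and at Atf7ip and Vmn2r89 that peak was in CML and not in WT. The genes with the nearest peaks were Mfsd8, a lysosomal membrane protein gene (chr3:40650683-40650871, centred -1 bp from the TSS), and Eif1ad, a gene with a translation initiation factor domain (chr19:5366739-5366882, -3 bp). Next came A730008H23Rik (4 bp), Cdkn2aipnl (-8 bp), the RNA helicase gene Ddx20 (-9 bp), Nhlrc2 (10 bp) and Mapk6, which encodes the kinase ERK3 (13 bp). Rbm39, of the sequence shown, had a peak at chr2:156005895-156006026 (14 bp), and Nsfl1c, a cofactor gene of the p97 ATPase, one at 16 bp. Smim8 (-23 bp), Zcchc6, a terminal uridylyltransferase gene (23 bp), Rpl3, a ribosomal protein gene (25 bp), and Ap4e1 (-33 bp) followed. The last of the nearest 20 were 5430405H02Rik (34 bp), Gabpb1, a subunit gene of the ETS factor GABP (-36 bp), Ubox5 (-36 bp), the exocyst gene Exoc2 (-38 bp), Cfap20 (-55 bp), Lrrc8d, a volume-regulated anion channel gene (-55 bp), and Vdac1, the mitochondrial porin gene (58 bp). Of these 20, A730008H23Rik, Cdkn2aipnl and Nsfl1c were named in CML-TKI and the other 17 were not.

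A few further CML-only promoter genes are given as examples, chosen after their values were seen. The chaperone genes Hspa8 (chr9:40609426-40609652, 183 bp) and Hsp90aa1 (chr12:111934280-111934481, 225 bp) had peaks in their first introns. Herpud1, a gene of the endoplasmic reticulum stress response, had a promoter peak at -388 bp. Dusp1, a phosphatase gene that turns off MAP kinases, had a peak in the first exon (chr17:26645121-26645319, 197 bp), and Rasa1, a RAS GTPase-activating protein gene, one in the 5' UTR (164 bp). The long noncoding RNA genes Neat1, of nuclear paraspeckles (-139 bp), and Gas5 (183 bp) were named in CML only, while Malat1, another nuclear RNA, was named in both (-6 bp). Dusp1 and Neat1 were named in CML-TKI, and Hspa8, Hsp90aa1, Herpud1, Rasa1 and Gas5 were not.

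Promoters that carried pSTAT3 in WT and not in CML were fewer in number, but not as a share of the genes named. Of 128 WT-only genes 47 (36.7%) were named by a peak at most 1 kb from the TSS, 46 of them protein-coding, and 60 had one within 5 kb. Ends were missing for 15 of the 47, so these were compared with CML by their distance to the TSS alone. Rbm25, a splicing regulator gene (chr12:84973109-84973267, 4 bp), had the nearest peak, followed by Vwa9 (11 bp), Ccdc77 (13 bp), Snrnp35, of the minor spliceosome (13 bp), Traf3ip3 (-19 bp) and Nfs1, the cysteine desulfurase of iron-sulfur cluster assembly (-23 bp). Genes of the basal transcription machinery were Gtf2b, which encodes TFIIB (chr3:142428053-142428309, -30 bp), and Gtf2a1, a TFIIA subunit gene (chr12:92828011-92828353, -137 bp). Klf2 had its peak at chr8:74842931-74843134 (71 bp), and Cited2, a transcriptional coregulator gene needed by blood stem cells in mice, one in the 5' UTR (chr10:17443022-17443255, 104 bp). Hmga1, an architectural chromatin protein gene, was named by a peak at -987 bp (chr17:27692452-27692613). Jund, an AP-1 subunit gene, had a peak in its only exon (chr8:73222799-73223241, 1382 bp) in WT and not in CML, while Jun, another AP-1 subunit gene, was CML only. Other WT-only promoters were those of the tumor suppressor gene Wwox (-78 bp), the tyrosyl-tRNA synthetase gene Yars (120 bp), the ubiquitin ligase gene Rchy1 (155 bp), the replication fork gene Timeless (-669 bp) and the F-box gene Fbxo36 (-257 bp). Fbxw7, the F-box gene whose product targets cyclin E and Myc for degradation, had a WT-only peak just outside the promoter (-1177 bp), and Sod2, the mitochondrial superoxide dismutase gene, one in an intron (2336 bp). All 60 WT-only genes within 5 kb were named in CML-TKI.

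A small set of promoters carried pSTAT3 in both libraries. The 10 genes nearest to the TSS were Malat1 (-6 bp), Vmn2r29 (-7 bp), 2610005L07Rik (-26 bp), Sfi1 (-27 bp in CML and -235 bp in WT), Plk1 (31 bp), Gbas (-54 bp), Prkag1, a regulatory subunit gene of the energy sensor AMPK (-90 bp), Ubb (114 bp), Rps29, a ribosomal protein gene (-121 bp), and Jak3, a JAK kinase gene of lymphoid and myeloid cytokine receptors (141 bp). Bcl6 (chr16:23988744-23988984, -166 bp), the stress response factor gene Atf4 (chr15:80085916-80086185, 436 bp) and Zfp36l2, an RNA-decay factor gene of blood progenitors (chr17:84587911-84588080, -708 bp), were also shared, with the same ends in each, and were chosen after their values were seen. All 131 shared genes were named in CML-TKI. The median distance to the TSS was 22362 bp for shared genes, 11177 bp for CML-only genes and 6319 bp for WT-only genes.

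In the JAK-STAT pathway, ligand receptors, kinases and STAT genes together had 5 of 59 members named in CML (8.47%, beside 1.94% of all genes) and 1 in WT (1.69%, beside 1.03%). Jak3 was the member named in both. The promoter of the Stat3 gene carried a peak in CML and not in WT (chr11:100800929-100801256, -267 bp), and the gene was also named in CML-TKI. Stat5b, whose product is a main STAT downstream of BCR-ABL, was named in CML alone through an intronic peak (chr11:100698846-100699004, 12974 bp). Of the receptor genes, Csf2ra, the GM-CSF receptor alpha chain (chr19:61339985-61340263, -35803 bp), and Il10rb, an interleukin-10 receptor chain (chr16:91433824-91433967, 27415 bp), were named in CML only by intergenic peaks. Within 5 kb of a TSS the counts were 2 in CML and 1 in WT.

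Of 47 established STAT3 target genes, 3 were named in CML (6.38%, beside 1.94% of all genes) and 1 in WT (2.13%, beside 1.03%). Ccnd3, a cyclin D gene, had an intronic peak with the same ends in both libraries (chr17:47732656-47732818, 2321 bp). Myc (chr15:61817061-61817348, 308 bp) and Jun (chr4:94718189-94718451, 593 bp) had 5' UTR peaks in CML and none in WT. Jun was also named in CML-TKI and Myc was not. Among 61 genes of BCR-ABL signaling, 3 were named in CML (4.92%, beside 1.94%). The 0 named in WT is near the background of that library (1.03%). Pik3r1, the regulatory PI3K subunit gene (-33304 bp), and Dok1, a docking protein gene (28376 bp), were named by distal peaks. With 1 to 5 genes per list, these shares rest on single peaks.

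Regulators of hematopoietic stem cells were named by distal sites that differed between the libraries. Of 60 genes 4 were named in WT (6.67%, beside 1.03% of all genes) and 3 in CML (5.0%, beside 1.94%). In either library 0 of them were named by a peak closer than 5 kb. Kit, the stem cell factor receptor gene that also defines the LSK gate, was named in both by the same intergenic peak (chr5:76126663-76126840, 155735 bp). Runx1 (chr16:92715827-92715984, -18331 bp), Etv6 (chr6:134136361-134136529, 150720 bp) and Slamf1, which encodes CD150 (chr1:173654620-173654953, -42456 bp), were named in WT and not in CML, and all were named in CML-TKI. Runx3 (chr4:134610478-134610665, -65989 bp) and Sox17, a factor of fetal stem cells (chr1:4596591-4596728, -109224 bp), were named in CML only and not in CML-TKI. In the Wnt, hedgehog and TGF-beta list, 2 of 111 genes were named in each library (1.8%). That share is near the CML background of 1.94% and stands beside 1.03% in WT. The genes were Axin2 and Tgfbr2 in both, by distal peaks 91525 bp and 97642 bp from their TSS.

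Of 93 cell cycle and apoptosis genes, 4 were named in WT (4.3%, beside 1.03% of all genes) and 3 in CML (3.23%, beside 1.94%). Ccnd3 and Plk1 were shared. Cdk6, the G1 kinase gene, was CML only by a peak far from its TSS (-244001 bp). Mdm4, a p53 inhibitor gene (chr1:134922082-134922316, -318 bp), and Pmaip1, which encodes the BH3 protein NOXA (19739 bp), were WT only. Among 112 chromatin regulators 4 were named in CML (3.57%, beside 1.94%) and 3 in WT (2.68%, beside 1.03%). That 0 were named in both is near the background, since 0.509% of all genes were named in both. WT named the SWI/SNF subunit genes Arid1a (-60395 bp), Arid1b (chr17:4994347-4994506, -648 bp) and Smarcd2 (128 bp). CML named Brd2, a bromodomain gene (chr17:34256656-34256791, 122 bp), Chd2, a remodeler gene (3589 bp), Ring1, of the Polycomb complex (6124 bp), and Tet2, a DNA demethylation gene (-78925 bp).

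Genes of RNA processing and translation had 8 of 93 members named in CML only (8.6%, beside 1.43% of all genes). In all 9 were named in CML (9.68%, beside 1.94%) and 2 in WT (2.15%, beside 1.03%). Ddx5, an RNA helicase gene, was shared (244 bp), and Rbm25 was WT only. The splicing genes Rbm39, Tra2b (chr16:22265541-22265776, 344 bp) and Hnrnph1 (chr11:50192023-50192213, 897 bp) were CML only, as was Rpl3. So were Eef2 (chr10:80639444-80639619, 155 bp) and Eef1a1 (5589 bp), elongation factor genes, Eif5, an initiation factor gene (-13031 bp), and Drosha (136942 bp). Within 5 kb of a TSS the counts were 6 for CML and 2 for WT. Drosha, Eef1a1 and Eef2 were, of the 8 CML-only genes, those named in CML-TKI.

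Histone genes were named in CML and not in WT. Of 80 members 6 were named in CML (7.5%, beside 1.94%), each within 1 kb of the TSS. The 0 named in WT is near the background of that library (1.03%). In CML-TKI 0 were named, and no background share was computed for CML-TKI. The replication-dependent genes lay in the cluster on chromosome 13. They were Hist1h2ac (599 bp), its neighbour Hist1h2bc (chr13:23776392-23776600, 428 bp), Hist1h2bg (chr13:23663626-23663876, 482 bp) and Hist1h3a (chr13:23854041-23854175, 147 bp). Both genes of the replacement histone H3.3 were also named, H3f3a (chr1:182742959-182743091, 709 bp) and H3f3b (396 bp). Histone genes have close copies, so the reads of some members could come from another, and the list was chosen with earlier results of these data known.

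Zinc finger protein genes had 26 of 521 named in CML (4.99%, beside 1.94% of all genes) and 18 in WT (3.45%, beside 1.03%). By class, 16 were CML only (3.07%, beside 1.43%), 8 WT only (1.54%, beside 0.522%) and 10 in both (beside 0.509% of all genes). Some of these peaks lay in the last exon of a gene, as at Zfp454, Zfp780b and Zfp90 in CML, and few lay within 5 kb of a TSS (7 in CML and 3 in WT). Zfp738 had a promoter peak in both (-251 bp), and Zbtb16, which encodes PLZF, an intronic one in WT only (21217 bp). Ubiquitin ligase and protease genes had 6 of 397 in CML (1.51%, beside 1.94%) and 2 in WT (0.504%, beside 1.03%). The CML genes included Usp1, a deubiquitinase gene of DNA repair (-100 bp), and the proteasome gene Psma6 (-108 bp). In DNA repair, 1 of 60 genes was named in CML (1.67%, beside 1.94%) and 0 in WT (beside 1.03%), both near the background. The gene was Fancc (36837 bp).

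Energy metabolism genes had 3 of 100 members named in WT (3.0%, beside 1.03%) and 2 in CML (2.0%, beside 1.94%). Prkag1 was shared and Cox7a2, a cytochrome oxidase subunit gene, was CML only (chr9:79607451-79607679, 95 bp). Pgam1, which encodes phosphoglycerate mutase (chr19:41985848-41986102, -386 bp), and Slc16a1, the lactate transporter gene (62465 bp), were WT only. Of 1193 microRNA genes 13 (1.09%) were nearest to a CML peak and 5 (0.419%) to a WT peak. The background shares cover protein-coding genes, so they give no measure for microRNA genes. Mir21a was named in both libraries by the same peak inside an intron of a neighbouring gene (chr11:86437927-86438069, -40338 bp).

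Marker lists of other cells were short and, apart from neuronal genes, had 0 to 2 named members in each library. All protein-coding genes were named at 1.94% in CML and 1.03% in WT, so 0 or 1 in such lists is near the background. Myeloid markers had 1 of 30 in each library (3.33%, Ly6c2, among the genes with the most peaks). Erythroid and megakaryocyte markers had 2 of 34 in each (5.88%, Ank1 and Nfe2). Lymphoid markers had 1 of 35 in CML (2.86%, Klrb1c) and 0 in WT, and liver genes 0 of 25 in both. Neuronal genes had 8 of 60 in CML (13.3%, beside 1.94%) and 1 in WT (1.67%, beside 1.03%). Of these 0 lay within 5 kb of a TSS in either library, and the CML-only members Cntnap2, Cntnap5a, Csmd3, Grik2, Nlgn1, Ptprd and Rbfox1 were named by peaks from 130614 bp (Cntnap2) to 1085362 bp (Cntnap5a) away. Neuronal genes are long and lie in gene-poor regions, and the part of locus length in this count was not tested.

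**Figure D4:**
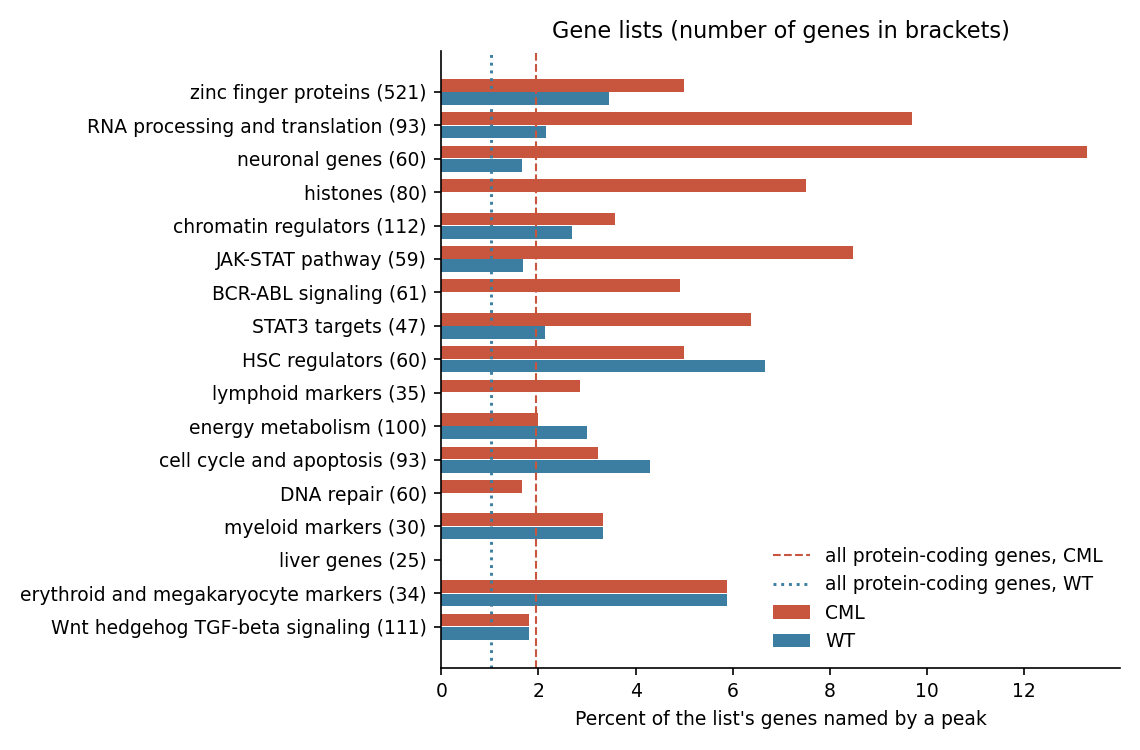
Percent of the genes of each list that were nearest to a peak (x axis), in CML and in WT, with the number of genes in brackets. The dashed and dotted lines mark the shares of all protein-coding genes, 1.94% in CML and 1.03% in WT; RNA processing and translation reached 9.68% in CML and 2.15% in WT, and stem cell regulators 5.0% and 6.67%.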

How the data were processed

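Chromatin bound by pSTAT3-Y705 was isolated from LSK cells by ChIP and sequenced. By the study's methods, the authors removed duplicates and adapters, aligned reads to mm10 with bwa mem, called broad peaks with several callers, merged them and annotated them with HOMER. The submitters' processing notes name Partek 8.0, mm9 and mm10. The deposited table gives positions (bp), region class, repeat, nearest gene and distance to the TSS. It holds no read count or score, so depth is unknown. Peak ends pass the GRCm38 length on 6 chromosomes, so positions are given as mm9, and GRCm38 was used for names and promoter windows only.

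Peaks on chromosome Y were left out. Entries with the same ends were counted as 1 peak. Entries rounded to 1 Mb (93 in WT, 197 in CML) were matched by RefSeq accession and distance to the TSS. Of the peaks left, 11 in WT and 9 in CML took ends from another library, and 47 and 4 without ends were placed by their distance to that TSS and given a width of 200 bp. Where a peak had more than 1 distance, the smallest was taken. Of 618 gene names 615 matched the RefSeq table.

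Members, lists and alternatives were chosen with earlier results of these data known. Named genes were the 20 CML-only and 10 shared genes nearest to a TSS, WT-only genes within 5 kb, the 6 widest sites of each class, list members named in 1 library and the 10 genes with the most peaks. Others were chosen after their values were seen. Some genes are not reported here. The site step was tested on simulated data. The tools were Python 3.11.15, pandas 2.3.3, numpy 2.4.6, matplotlib 3.10.9 and scipy 1.17.1.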

Additional observations from a re-analysis of the deposited data

How the results depend on the processing

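No paired analysis was possible because WT and CML were represented by a single library apiece. Of 63 values recomputed under the alternatives, 36 did not move and 27 did. Apart from settings that by construction keep fewer peaks or count other things, the cause was not tested.

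With peaks of at least 500 bp, 135 WT and 29 CML peaks were left, with 24 shared, 4 CML-only and 53 WT-only sites, and 13 shared, 4 CML-only and 17 WT-only genes, so the surplus of CML-only sites and genes was turned around. Promoter shares were then 2.96% in WT and 13.8% in CML. With every table entry counted, CML had 1229. Within 5 kb of a TSS there were 31 shared, 140 CML-only and 61 WT-only genes, and the peak shares were 20.8% in WT and 28.1% in CML. Without the 10 genes with the most entries there were 327 WT peaks and 106 shared sites, promoter shares of 19.9% in WT and 22.9% in CML, 52.9% of WT peaks were intergenic, satellite shares were 7.03% and 3.03%, and median widths were 231 bp in WT and 177.5 bp in CML. With merged regions, the promoter share of WT was 16.8% and its median width 275.5 bp. Joining peaks within 100 bp or 1 kb, asking for overlap of 50% of the shorter peak, leaving out rounded entries and including chromosome Y left every site count within 1.5 times. The 2 lists each rest on 1 library and an unknown depth, which limits every comparison here.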

Other observations

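Chromosome Y was left out of every comparison. It held 168 distinct peaks in WT and 78 in CML.

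Many peaks were listed more than once. The table gave 828 entries for the 578 WT peaks and 1229 for the 637 CML peaks off chromosome Y. In CML, 23 of 202 peaks in shared sites and 17 of 435 CML-only peaks were listed 4 times. In WT, 1 of 351 and 6 of 227 were.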
